A study of Mus musculus with 13 samples.

Results

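The oxidative phosphorylation genes were examined in RNA from isolated brain neurovasculature of 13 male CD1 mice aged 8 to 10 weeks. Members were the protein-coding genes whose mouse symbol begins with mt-Nd, mt-Co, mt-Atp, mt-Cytb, Ndufa, Ndufb, Ndufc, Ndufs, Ndufv, Uqcr, Cox4, Cox5, Cox6, Cox7, Cox8 or Atp5, together with *Sdha*, *Sdhb*, *Sdhc* and *Sdhd*. Of 47643 listed genes, 106 met this rule, 13 of them encoded on the mitochondrial chromosome and 93 in the nucleus. The nuclear members comprised 36 genes of complex I, 4 of complex II, 8 of complex III, 20 of complex IV, 17 of complex V and 8 assembly factors of complex I, which the rule takes in because their symbols begin with Ndufaf.

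The animals formed 3 groups. In 4 sham-vehicle mice PBS replaced lipopolysaccharide (LPS), and 5 LPS-vehicle and 4 LPS-CPD-4645 mice received LPS of *Salmonella enterica* typhimurium, an endotoxin that provokes systemic inflammation, at 3 mg/kg into the peritoneum at 0, 6 and 24 h. CPD-4645, a covalent inhibitor of monoacylglycerol lipase, the enzyme that breaks down the endocannabinoid 2-AG, was given under the skin at 10 mg/kg in DMSO, Cremophor and saline, 30 min after each LPS dose by the sample labels, a delay that the study does not give uniformly. The paper reports that in the brain the compound also inhibited the hydrolases ABHD6 and FAAH in part. Vessels were prepared at 28 h, or 4 h past the final injection of LPS. The brains were not perfused and so kept blood in their vessels, and no group received CPD-4645 without LPS. The fraction was not sorted: the 7 endothelial markers summed to between 220 and 471 CPM, which are counts scaled to one common library size after TMM, over the 13 libraries, beside 7619 to 10545 CPM for 7 neuronal and 3158 to 6387 CPM for 6 oligodendrocyte markers. Total counts per library ran from 7813559 to 55133373, and genes of the mitochondrial chromosome took 3.97% to 12.7% of them.

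Complexes I to IV of the inner mitochondrial membrane pass electrons from NADH and succinate to oxygen and pump protons, and complex V, the ATP synthase, makes ATP from the proton gradient. A few core subunits of complexes I, III, IV and V are encoded by the mitochondrial chromosome, which is transcribed as long RNAs that are then cut into single messages, while the other subunits and all of complex II are made from nuclear genes. Endothelial cells of the blood-brain barrier are known for a high content of mitochondria.

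Not every mitochondrially encoded member could be measured, and the sequences of these genes show which ones share stretches of sequence with annotated nuclear genes. A stretch of chromosome 1 on the minus strand of GRCm38 carries annotated pseudogenes that repeat the neighbouring mitochondrial genes *mt-Co2*, *mt-Atp6*, *mt-Co3*, *mt-Nd3* and *mt-Nd4l* almost base for base. The reads of this study were 75 bases long, so each member was cut into all of its 75-base words and each word was looked up in the transcripts of every other gene of GENCODE M21. Printed first are the middle 75 bases of *mt-Co2* (chrM:7317-7391, plus strand) and the same bases of its copy *Gm28661* (chr1:24615187-24615261, minus strand), which are identical. Next come the first 75 bases of *mt-Nd3* (chrM:9459-9533, plus strand) and of its copy *Gm28438* (chr1:24613045-24613119, minus strand), in which the capital letter marks the base that differs. The last is the middle of *mt-Cytb* (chrM:14679-14753, plus strand), a gene without a shared word. All are shown 5′ to 3′ in the sense of the transcript.
mt-Co2: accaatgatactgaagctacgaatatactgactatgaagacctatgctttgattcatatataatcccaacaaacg
Gm28661: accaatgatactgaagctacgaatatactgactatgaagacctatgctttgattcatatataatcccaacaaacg
mt-Nd3: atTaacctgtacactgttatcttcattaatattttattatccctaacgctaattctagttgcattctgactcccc
Gm28438: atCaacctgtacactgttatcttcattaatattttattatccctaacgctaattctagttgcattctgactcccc
mt-Cytb: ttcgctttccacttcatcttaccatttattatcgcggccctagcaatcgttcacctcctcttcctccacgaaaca

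The 5 genes with a near-complete copy were listed at or near 0. Over all 13 libraries *mt-Co2* held 19 counts, *mt-Atp6* 23 and *mt-Co3* 27, and *mt-Nd3* and *mt-Nd4l* held 0 in every library. Of their 75-base words, 99.5% (*mt-Co2* and *mt-Atp6*), 99.9% (*mt-Co3*), 97.8% (*mt-Nd3*) and 98.7% (*mt-Nd4l*) also occurred in another gene. In an ungapped comparison *mt-Co2*, *mt-Atp6*, *mt-Co3* and *mt-Nd4l* had 0 differences from their copies, and *mt-Nd3* differed from *Gm28438* in 1 of 345 bases, the substitution T3C (the base of *mt-Nd3*, its position from the first base of that gene, then the base of the copy). A sixth gene, *mt-Atp8*, lies between *mt-Co2* and *mt-Atp6*, held 0 counts in every library and shared none of its words with an annotated transcript. A count of 0 allows up to 3 counts, or 0.0544 CPM in the deepest and 0.384 CPM in the shallowest library.

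Of the near-complete copies on chromosome 1, *Gm28438* held 60 to 316 counts per library, whereas *Gm28661*, *Gm10925*, *Gm28437* and *Gm10222*, the copies of *mt-Co2*, *mt-Atp6*, *mt-Co3* and *mt-Nd4l*, held between 0 and 14. Over all libraries, partial copies on chromosome 2 held more than *Gm28661*, *Gm10925*, *Gm28437* and *Gm10222*, but fewer than the 2313 counts of *Gm28438*. There were 648 counts for *Gm13341*, which holds 22.6% of the words of *mt-Co2*, and 756 for *Gm13340*, which holds a part of those of *mt-Co1*. Levels of *Gm28438* lay between 9.01 and 13.7 CPM in sham-vehicle, 4.40 and 7.56 CPM in LPS-vehicle and 3.31 and 6.04 CPM in LPS-CPD-4645 mice, so that both LPS groups stayed below every sham-vehicle mouse. Its log2 fold change was -1.02 ± 0.20 (SE) after LPS (edgeR adjusted p = 0.00152) and -1.17 ± 0.22 for LPS-CPD-4645 against sham-vehicle (edgeR adjusted p = 0.000430). The aligner's gene counts keep reads that map to 1 place only, and whether the copies account for the near-0 counts was not tested, so the 6 genes are named without a comparison of groups.

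**Figure D1:**
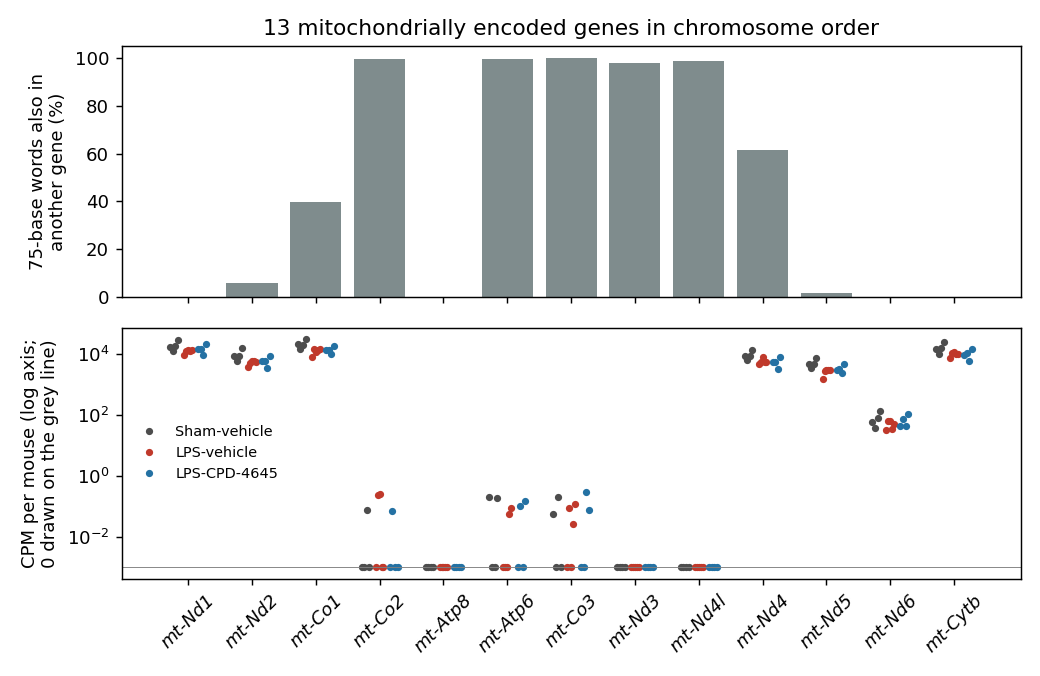
The upper panel shows, for the 13 mitochondrially encoded genes in chromosome order, the percentage of 75-base words that also occur in another annotated gene, and the lower panel shows CPM per mouse on a log axis with values of 0 on the grey line. The 6 genes from *mt-Co2* to *mt-Nd4l* sit at or near 0 in all 3 groups, and the other 7 genes lie between 33.2 and 31490 CPM.

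Among the 7 measurable mitochondrial genes, partial copies remained for *mt-Nd4* (61.5% of words shared) and *mt-Co1* (39.8%), while *mt-Nd2* and *mt-Nd5* shared 5.71% and 1.66% and *mt-Nd1*, *mt-Nd6* and *mt-Cytb* none. Per length of all annotated exons of a gene, the sham-vehicle levels in TPM, which divides counts by that length before scaling each library to one total, were highest for *mt-Nd1* at 58039 ± 16343 (SD, n = 4), followed by *mt-Cytb* at 41976 ± 12618 and *mt-Co1* at 40702 ± 9222, and these neighbours lay within their spread of each other. The only gene read from the other strand, *mt-Nd6*, stood at 428 ± 187 TPM. Counted only over words that no other gene shares, the sham-vehicle order was another, with *mt-Co1* ahead of *mt-Nd1*, *mt-Nd4* and *mt-Cytb*.

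After LPS the log2 fold changes of all 7 measurable mitochondrially encoded genes were below 0. Of the 7 tested, 5 were called lower in LPS-vehicle than in sham-vehicle mice, where 8.86% of the 17285 genes tested were called lower, and their median log2 fold change was -0.75 against -0.00065 over all genes tested. The threshold was an adjusted p of 0.05 in edgeR's quasi-likelihood test, with the Benjamini-Hochberg method over all genes tested, and log2 fold changes are given with their SE. The count called lower was 5 by limma-voom, 6 by voomWithQualityWeights and 3 by DESeq2, under which *mt-Nd4* (DESeq2 adjusted p = 0.0549) and *mt-Cytb* (0.0532) were not called. None of the 7 was called higher by edgeR, limma-voom or DESeq2, and 0 were higher at an unadjusted p under 0.05 in edgeR.

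*mt-Nd5*, which encodes a proton-pumping subunit of complex I, stood at 4827, 3492, 4851 and 7303 CPM in the sham-vehicle mice and at 1496, 2784, 2992, 2978 and 3045 CPM in the LPS-vehicle mice. Every LPS-vehicle mouse lay below every sham-vehicle mouse, and the log2 fold change was -0.94 ± 0.23 (edgeR adjusted p = 0.00602). This call was kept without any one of the 13 libraries.

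*mt-Co1*, the catalytic subunit of complex IV that binds oxygen, stood at 20898, 15154, 20626 and 31490 CPM in sham-vehicle and at 8427, 15083, 11455, 13663 and 14763 CPM in LPS-vehicle mice. The groups did not overlap, though by a narrow margin, and the log2 fold change was -0.80 ± 0.20 (edgeR adjusted p = 0.00948). *mt-Nd2*, a further membrane subunit of complex I, stood at 9061, 6079, 9029 and 15757 CPM against 3826, 5312, 5921, 5903 and 5369 CPM. Here too the groups did not overlap, and the log2 fold change was -0.92 ± 0.24 (edgeR adjusted p = 0.0103).

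The other called genes overlapped between the groups. *mt-Cytb*, the cytochrome b of complex III, ranged from 10317 to 25876 CPM in sham-vehicle and from 7518 to 12153 CPM in LPS-vehicle mice (log2 fold change -0.75 ± 0.24, edgeR adjusted p = 0.0330). *mt-Nd4*, another pump subunit of complex I, ranged from 6484 to 13972 CPM and from 4854 to 7847 CPM (log2 fold change -0.68 ± 0.22, edgeR adjusted p = 0.0326). *mt-Nd1* (12539 to 29568 against 9693 to 14210 CPM, log2 fold change -0.62 ± 0.22, edgeR adjusted p = 0.0538) and *mt-Nd6* (38.5 to 134 against 33.2 to 65.0 CPM, log2 fold change -0.66 ± 0.32, edgeR adjusted p = 0.156) did not pass the threshold. Groups without overlap were thus found for 3 of the 7 genes, all lower, where 8.44% of all genes tested did so in that direction.

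**Figure D2:**
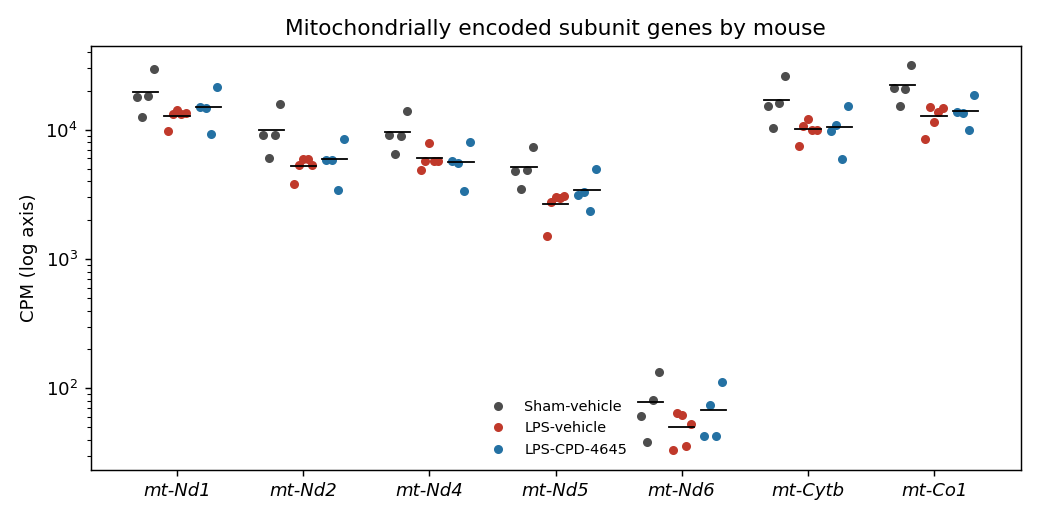
CPM on a log axis for the 7 mitochondrially encoded genes that passed the filter on low counts, with 1 point per mouse and a black line at each group mean. The highest sham-vehicle point of every gene belongs to sham-vehicle mouse 4, at 29568 CPM for *mt-Nd1* and 31490 CPM for *mt-Co1*.

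A single mouse carried much of this difference. Sham-vehicle mouse 4 had the highest value of its group for each of the 7 genes, and without it 1 of 7, *mt-Nd5*, was called lower in LPS-vehicle mice, and the median of the 7 log2 fold changes was -0.47. Without that mouse *mt-Co1* fell by 0.58 (edgeR adjusted p = 0.0502), *mt-Nd2* by 0.61 (edgeR adjusted p = 0.0609), *mt-Cytb* by 0.47 (edgeR adjusted p = 0.172) and *mt-Nd4* by 0.45 (edgeR adjusted p = 0.161) on the log2 scale. The call of *mt-Nd4* was also lost in turn without sham-vehicle mouse 1 or 3 or LPS-vehicle mouse 1, 2, 4 or 5, and that of *mt-Cytb* without sham-vehicle mouse 3 or LPS-vehicle mouse 1, 4 or 5 (edgeR adjusted p = 0.0523 to 0.172 over the losses of *mt-Cytb* and 0.0528 to 0.161 over those of *mt-Nd4*). In the other direction, all 7 genes were called lower without sham-vehicle mouse 2 (median -0.93), where 8.21% of all genes were. Without LPS-CPD-4645 mouse 3 or 4 the count was 6 of 7, where 9.03% and 8.38% of all genes were. Sham-vehicle mouse 4 had the highest summed neuronal (10490 CPM, against 9126 to 9638 in the other sham-vehicle mice) and oligodendrocyte markers (6387 against 4450 to 4859 CPM) of its group. Its endothelial (243 against 299 to 385 CPM), pericyte (241 against 312 to 360 CPM) and smooth muscle sums (34.5 against 38.0 to 61.6 CPM) were the lowest. So were its astrocyte (1272 against 1409 to 1606 CPM), microglia (140 against 186 to 193 CPM), erythrocyte (468 against 484 to 957 CPM) and neutrophil sums (0.84 against 2.63 to 4.48 CPM). The summed neuronal markers of the LPS-vehicle mice, 7619 to 8476 CPM, lay below all sham-vehicle mice. So did the LPS-vehicle sums of oligodendrocyte (3158 to 4180 CPM), smooth muscle (17.0 to 26.9 against 34.5 to 61.6 CPM), erythrocyte (239 to 460 against 468 to 957 CPM) and ependymal markers (13.1 to 20.5 against 22.2 to 27.0 CPM), while astrocyte (1634 to 2149 against 1272 to 1606 CPM) and neutrophil markers (49.4 to 204 against 0.84 to 4.48 CPM) lay above all sham-vehicle mice. The part of cell composition in the mitochondrial values was not tested, and in these bulk samples fewer cells of a type and less RNA per cell cannot be told apart.

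Summed over the 13 mitochondrially encoded genes, the level was 76976, 54103, 77915 and 124101 CPM in the sham-vehicle mice, 35847, 52795, 54641, 51354 and 52256 CPM in the LPS-vehicle mice and 53039, 53733, 34287 and 76788 CPM in the LPS-CPD-4645 mice. All 3 groups overlapped, the LPS-vehicle and sham-vehicle mice through 1 of each, LPS-vehicle mouse 3 at 54641 and sham-vehicle mouse 2 at 54103 CPM. The LPS-vehicle mean was 0.593 of the sham-vehicle mean, and 0.709 without sham-vehicle mouse 4. The mitochondrial ribosomal RNAs, which are no members, summed to 13368 ± 2526 CPM (SD, n = 4) in sham-vehicle, 10758 ± 2594 (n = 5) in LPS-vehicle and 8433 ± 2535 (n = 4) in LPS-CPD-4645 mice.

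The nuclear members, summed over 93 genes, stood at 16105, 17274, 16656 and 15571 CPM in sham-vehicle, 13269, 15186, 15939, 14268 and 17079 CPM in LPS-vehicle and 17278, 18735, 18294 and 17765 CPM in LPS-CPD-4645 mice. The LPS-CPD-4645 mice lay above all others, although the lowest of them and the highest sham-vehicle mouse were nearly equal. Sham-vehicle and LPS-vehicle mice overlapped. As a percentage of total counts, without TMM, all groups overlapped, at 1.67% to 1.86% in LPS-CPD-4645, 1.43% to 1.75% in LPS-vehicle and 1.41% to 1.75% in sham-vehicle mice. The mean log2 CPM of the 92 nuclear members tested overlapped too, at 6.58 to 6.72, 6.30 to 6.63 and 6.55 to 6.66 in the same order. The mean log2 CPM of the 7 mitochondrial genes minus that of the 92 nuclear members tested was 5.87 ± 0.57 in sham-vehicle (SD, n = 4), 5.29 ± 0.20 in LPS-vehicle (n = 5) and 5.26 ± 0.52 in LPS-CPD-4645 mice (n = 4). The difference between LPS-vehicle and sham-vehicle mice, -0.58, was about 1 SD of the sham-vehicle mice, and the groups overlapped in this measure. Without sham-vehicle mouse 4 the difference was -0.33.

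**Figure D3:**
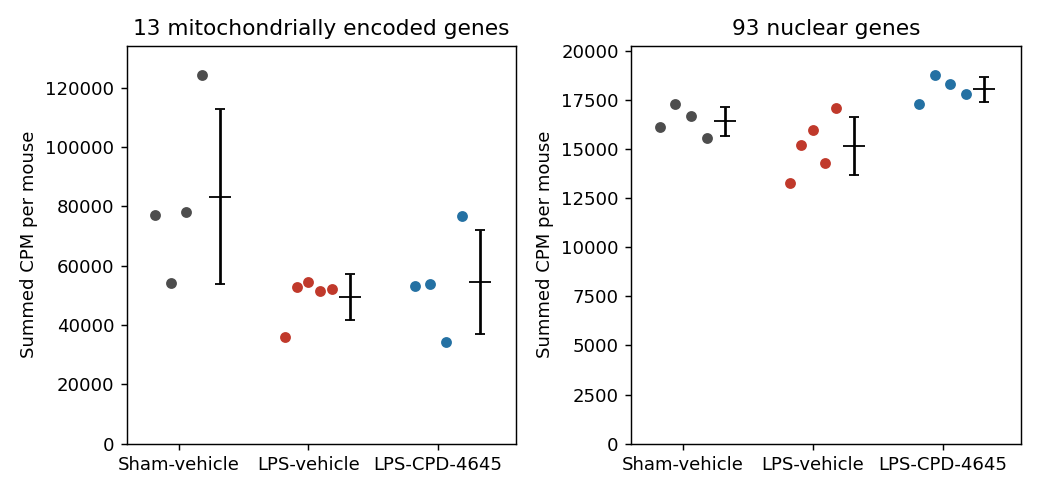
Summed CPM per mouse of the 13 mitochondrially encoded (left) and the 93 nuclear members (right), each axis starting at 0, with 1 point per mouse and the group mean ± SD as a bar beside the points. On the left sham-vehicle mouse 4 stands apart at 124101 CPM, and on the right the 4 LPS-CPD-4645 mice lie from 17278 to 18735 CPM.

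Of the 92 nuclear members tested, 8 (8.70%) were called lower in LPS-vehicle mice, a share near the 8.86% of all genes, and none was called higher by edgeR, limma-voom or DESeq2, where edgeR called 11.1% of all genes higher. At an unadjusted p under 0.05, 0 nuclear members were higher and 24 lower in edgeR. The share of all genes at that unadjusted threshold is not given here, and the 8.86% is no measure for it. The median log2 fold change was -0.12, and 75 of the 92 values were below 0. The called genes were 1 of complex I, 2 of complex IV, 4 of complex V and 1 assembly factor. Groups did not overlap for 7 nuclear members, all lower, or 7.61% against 8.44% of all genes tested. The nuclear count called lower was 3 without LPS-vehicle mouse 4 (7.84% of all genes), 4 without LPS-vehicle mouse 1 (6.71%), 5 without sham-vehicle mouse 2 (8.21%) or 3 (5.99%) and 20 without LPS-vehicle mouse 5 (8.44%), so that its place beside the share of all genes depended on the library left out. The count of members called lower, 13 with the mitochondrial genes, moved to between 6 (without LPS-vehicle mouse 4) and 23 (without LPS-vehicle mouse 5) when 1 library was left out.

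The largest fall was that of *Cox6a2*, the heart and skeletal muscle isoform of a complex IV subunit, the only member that changed at least 2-fold (0.995% of all genes passed that threshold on the lower side). It stood at 4.68, 8.65, 6.57 and 4.84 CPM in sham-vehicle and 2.88, 2.98, 2.65, 1.42 and 2.86 CPM in LPS-vehicle mice, without overlap (log2 fold change -1.27 ± 0.28, edgeR adjusted p = 0.00326). The summed markers of striated muscle did not separate the groups, at 35.4 to 39.7 CPM in sham-vehicle and 27.7 to 38.6 CPM in LPS-vehicle mice, and 0 of the 8 tested were called in either direction.

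Of complex V, *Atp5g1*, which encodes the proton-carrying subunit c, fell from 109, 123, 117 and 114 CPM to 66.2, 90.1, 70.2, 90.2 and 107 CPM, without overlap (log2 fold change -0.44 ± 0.12, edgeR adjusted p = 0.0170). *Atp5d*, a subunit of the central stalk, fell by 0.34 ± 0.10 on the log2 scale (edgeR adjusted p = 0.0241). *Atp5o*, which joins the peripheral stalk to the catalytic head, and *Atp5j2*, a small membrane subunit, each fell by 0.28 and passed narrowly (edgeR adjusted p = 0.0471 and 0.0424). Leaving out a single library ended the call of *Atp5o* for 10 of the 13 libraries, all but LPS-vehicle mice 2 and 5 and LPS-CPD-4645 mouse 3. For *Atp5j2* it did so for 10, all but sham-vehicle mouse 4, LPS-vehicle mouse 5 and the third LPS-CPD-4645 mouse. The edgeR adjusted p of these fits reached 0.113 for *Atp5o* and 0.131 for *Atp5j2*. That of *Atp5d* was lost without sham-vehicle mouse 2 or 4 or LPS-vehicle mouse 1 or 4 (edgeR adjusted p = 0.0583 to 0.0825).

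Elsewhere *Ndufaf3*, an assembly factor of complex I, stood at 54.3, 58.3, 53.3 and 49.8 CPM in sham-vehicle and 39.9, 47.1, 44.0, 40.2 and 43.1 CPM in LPS-vehicle mice, without overlap (log2 fold change -0.33 ± 0.08, edgeR adjusted p = 0.00667). *Cox5b*, a structural subunit of complex IV, fell by 0.31 ± 0.09 (edgeR adjusted p = 0.0205), a call lost without sham-vehicle mouse 3 or LPS-vehicle mouse 4 (edgeR adjusted p = 0.0616 and 0.0504). *Ndufa10*, an accessory subunit of complex I, fell by 0.36 ± 0.11 (edgeR adjusted p = 0.0250). Its value in sham-vehicle mouse 4 was 302 CPM against 201 to 211 CPM in the other sham-vehicle mice, and without that mouse it fell by 0.20 (edgeR adjusted p = 0.120). The call of *Ndufa10* was also lost without LPS-vehicle mouse 1 or 4, with the smallest edgeR adjusted p of the losses at 0.0543.

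Under CPD-4645 many nuclear members were higher than in LPS-vehicle mice. Of the 92 tested, 36 (39.1%) were called higher, where 14.1% of all genes tested were, and 3 (3.26%) were called lower, where 16.4% of all genes were. Their median log2 fold change was 0.21, against -0.02 over all genes tested, and 76 of the 92 values were above 0. None reached 2-fold in edgeR, while 1.70% of all genes were called higher and 4.19% lower at that size. Groups did not overlap for 21 higher (22.8%) and 2 lower nuclear members, where this held for 11.1% and 12% of all genes. Without LPS-CPD-4645 mouse 2 the count called higher was 21, where 10.4% of all genes were, and without LPS-vehicle mouse 1 it was 24, where 11.7% were. The LPS-vehicle mice of this comparison are those of the preceding one, so the falls after LPS and the rises under CPD-4645 share these animals.

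**Figure D4:**
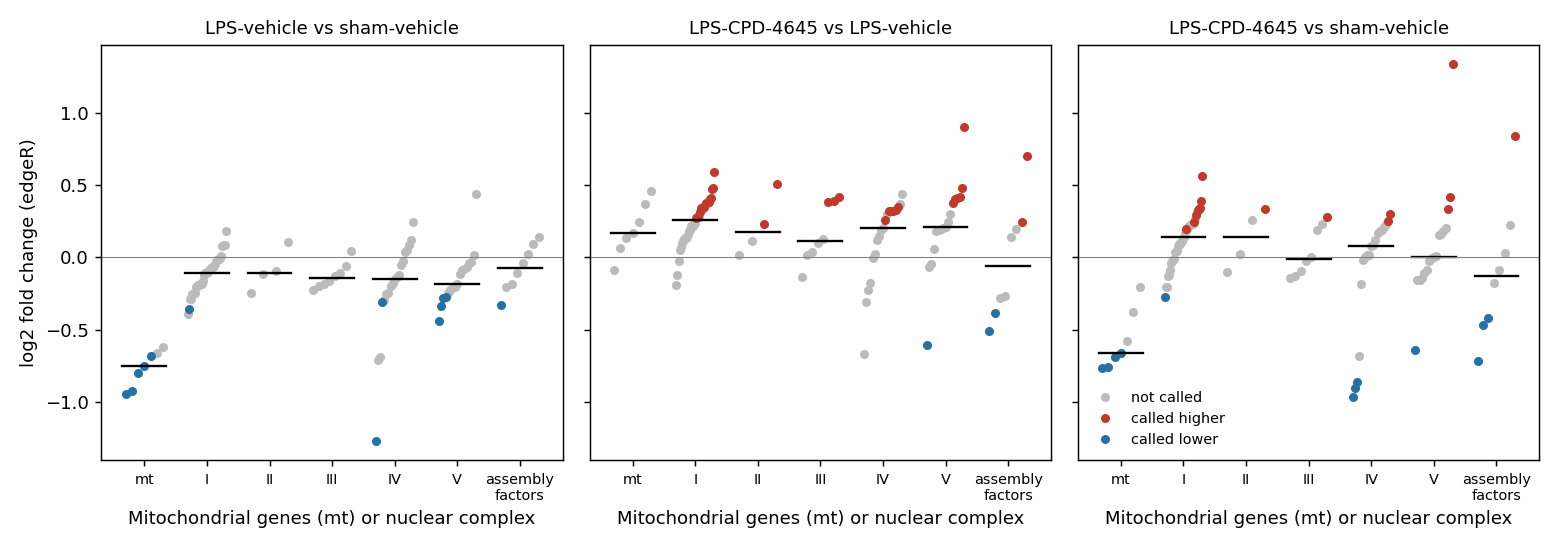
Log2 fold changes from edgeR for the 99 members tested, in 3 panels for the 3 comparisons, with mitochondrially encoded genes (mt), nuclear complexes I to V and the assembly factors side by side, colour for genes called higher or lower and a black line at each median. In the left panel the mitochondrial genes lie lowest as a group, with a median of -0.75, and in the middle panel the medians of complexes I to V lie between 0.11 and 0.26.

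Complex I, which takes electrons from NADH, had 17 of its 36 nuclear members called higher, where 14.1% of all genes were, and a median log2 fold change of 0.26. *Ndufb8*, an accessory subunit of the membrane arm, stood at 89.9, 110, 117, 97.9 and 117 CPM in LPS-vehicle and at 136, 172, 166 and 164 CPM in LPS-CPD-4645 mice. The groups did not overlap, the sham-vehicle mice lay between them at 120, 131, 125 and 113 CPM with some overlap with LPS-vehicle mice, and the log2 fold change against LPS-vehicle mice was 0.59 ± 0.09 (edgeR adjusted p = 0.000169). *Ndufb4*, of the same arm, rose by 0.48 ± 0.18 and passed narrowly (edgeR adjusted p = 0.0484). This call was lost without sham-vehicle mouse 1, LPS-vehicle mouse 1, 2, 4 or 5, or mouse 2 or 4 given CPD-4645 (edgeR adjusted p = 0.0577 to 0.179), and 35.2% of its words occur in *Ndufb4c*, a pseudogene with 75 counts in all.

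Of the core subunits of complex I fixed for naming, *Ndufv1*, which binds NADH, stood at 128 to 176 CPM in LPS-vehicle and 159 to 201 CPM in LPS-CPD-4645 mice (log2 fold change 0.28 ± 0.10, edgeR adjusted p = 0.0438), and lost its call without sham-vehicle mouse 1, LPS-vehicle mouse 1, 3 or 4, or mouse 2 or 3 given CPD-4645 (edgeR adjusted p = 0.0559 to 0.147). *Ndufs1*, which carries iron-sulfur clusters, had a log2 fold change of 0.11 ± 0.07 (edgeR adjusted p = 0.228). The remaining called members of complex I had log2 fold changes between those of *Ndufs6*, 0.27, and *Ndufv3*, 0.48, both chosen for this range after their values were seen.

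Complex II, succinate dehydrogenase, also works in the tricarboxylic acid cycle. *Sdhb*, its iron-sulfur subunit, stood at 118, 163, 156, 156 and 189 CPM in LPS-vehicle, 215, 229, 237 and 206 CPM in LPS-CPD-4645 and 190, 183, 200 and 171 CPM in sham-vehicle mice. The LPS-CPD-4645 mice lay above all others (log2 fold change against LPS-vehicle mice 0.50 ± 0.10, edgeR adjusted p = 0.00133). *Sdhd*, a membrane anchor, rose by 0.23 ± 0.08 (edgeR adjusted p = 0.0294), and lost this call without LPS-vehicle mouse 1 or 5, or mouse 2 or 4 given CPD-4645 (edgeR adjusted p = 0.0591 to 0.0919). *Sdha*, the flavoprotein that oxidizes succinate (0.11 ± 0.07, edgeR adjusted p = 0.207), and *Sdhc*, the other anchor (0.02 ± 0.10, edgeR adjusted p = 0.923), did not pass.

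In complex III 3 of 8 nuclear members were called higher, where 14.1% of all genes were. *Uqcrfs1*, the Rieske iron-sulfur protein, stood at 157, 168, 187, 157 and 191 CPM in LPS-vehicle and 205, 235, 234 and 226 CPM in LPS-CPD-4645 mice, without overlap (log2 fold change 0.39 ± 0.08, edgeR adjusted p = 0.00119). *Uqcrc1*, a core protein, rose by 0.42 ± 0.10 (edgeR adjusted p = 0.00493). Of complex IV, 6 of 19 tested were called higher against the same 14.1%, among them *Ndufa4* (0.32 ± 0.09, edgeR adjusted p = 0.0130), once assigned to complex I, and *Cox6a1* and *Cox7a2*, the widely expressed isoforms of their subunits (0.26 ± 0.09 and 0.32 ± 0.09, edgeR adjusted p = 0.0388 and 0.0158). Without LPS-CPD-4645 mouse 2 *Ndufa4* (edgeR adjusted p = 0.0664), *Cox7a2* (0.0684) and *Cox6a1* (0.134) were not called, and *Cox6a1* was not called without LPS-vehicle mouse 1, 4 or 5, or mouse 4 given CPD-4645 either. *Cox5a*, a nuclear subunit of the complex IV core region, had a log2 fold change of 0.30 ± 0.14 (edgeR adjusted p = 0.104).

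Complex V had 6 of 17 members called higher and 1 lower, where 14.1% and 16.4% of all genes were. *Atp5a1* and *Atp5b*, the alpha and beta subunits of the catalytic head, rose by 0.42 ± 0.09 and 0.38 ± 0.11 (edgeR adjusted p = 0.00171 and 0.0118). *Atp5o* stood at 172, 240, 212, 193 and 250 CPM in LPS-vehicle and 282, 324, 287 and 300 CPM in LPS-CPD-4645 mice, without overlap (log2 fold change 0.48 ± 0.10, edgeR adjusted p = 0.00114). *Atp5s*, a coupling factor related to the peripheral stalk, went the other way, from 19.2, 17.7, 23.6, 22.8 and 20.4 CPM to 14.4, 13, 12 and 14.8 CPM. The groups did not overlap, and it fell by 0.61 ± 0.12 (edgeR adjusted p = 0.000982).

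The largest rise was that of *Atp5l*, subunit g of the membrane part, at 5.08, 2.89, 7.94, 4.85 and 3.46 CPM in LPS-vehicle and 5.22, 9.58, 12.3 and 7.65 CPM in LPS-CPD-4645 mice. The groups overlapped (log2 fold change 0.90 ± 0.29, edgeR adjusted p = 0.0256), and the call was lost without LPS-vehicle mouse 2 or 5, or mouse 2 or 3 given CPD-4645 (edgeR adjusted p = 0.0590 to 0.107). Its level was uncertain, since 76.0% of its words occur in other genes, 50.0% in the pseudogene *Gm10221* alone. Likewise 86.9% of the words of *Atp5g2*, an isoform of subunit c, occur in the transcribed pseudogene *Gm10175*, and *Atp5g2*, chosen for this sharing after its values were seen, had a log2 fold change of 0.19 ± 0.16 (edgeR adjusted p = 0.390).

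Among the 8 assembly factors of complex I, 2 were called higher and 2 lower, where 14.1% and 16.4% of all genes were. *Ndufaf6* stood at 12.5, 13.1, 13.2, 12.5 and 12.2 CPM in LPS-vehicle, 12.4, 12.5, 11.5 and 9.68 CPM in sham-vehicle and 17.2, 22.5, 24.8 and 17.7 CPM in LPS-CPD-4645 mice. All LPS-CPD-4645 mice lay above all others (log2 fold change against LPS-vehicle mice 0.70 ± 0.13, edgeR adjusted p = 0.000741). *Ndufaf2* went from 15.4, 15.3, 20.7, 17.8 and 18.2 CPM in LPS-vehicle to 12.5, 11.8, 9.86 and 14.7 CPM in LPS-CPD-4645 mice, without overlap (log2 fold change -0.51 ± 0.14, edgeR adjusted p = 0.0117). *Ndufaf3*, named for its fall after LPS, rose by 0.25 ± 0.08 (edgeR adjusted p = 0.0272), and *Ndufaf8* fell by 0.38 ± 0.13 (edgeR adjusted p = 0.0314).

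**Figure D5:**
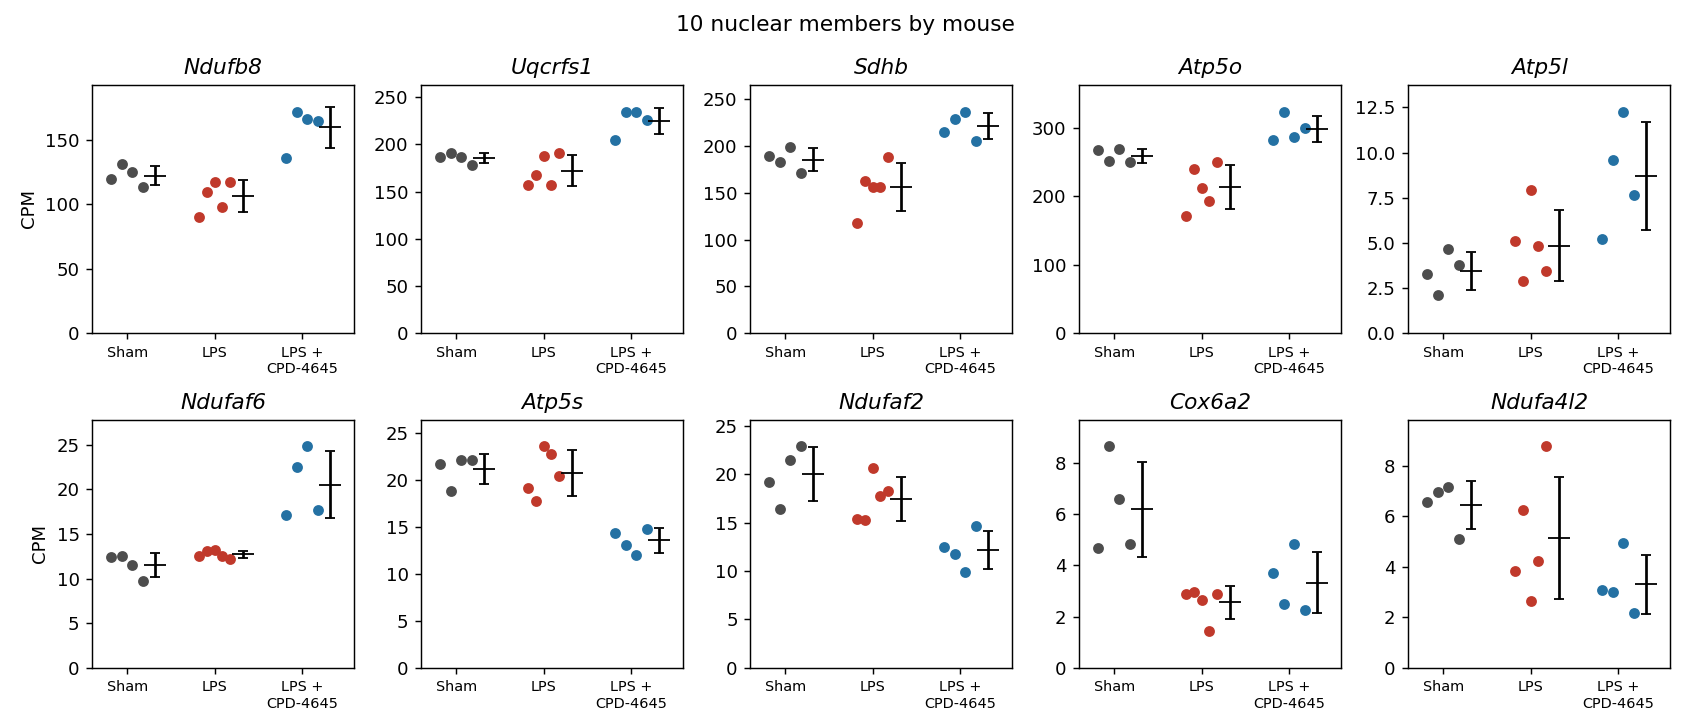
CPM of 10 nuclear members with 1 point per mouse and the group mean ± SD as a bar beside the points, each axis starting at 0. LPS-CPD-4645 mice lie above both other groups for *Ndufb8*, *Uqcrfs1*, *Sdhb*, *Atp5o* and *Ndufaf6* and below both for *Atp5s* and *Ndufaf2*, and the *Cox6a2* values of LPS-vehicle mice, 1.42 to 2.98 CPM, lie below those of sham-vehicle mice.

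For the mitochondrially encoded genes CPD-4645 gave no call against LPS-vehicle mice. Their median log2 fold change against LPS-vehicle mice was 0.17, with values from -0.09 (*mt-Nd4*) to 0.46 (*mt-Nd6*) and SE from 0.20 to 0.32. Without a single library the median was 0.36 (LPS-CPD-4645 mouse 3), -0.02 (LPS-CPD-4645 mouse 4) or 0.07 (LPS-vehicle mouse 1). None of the 7 was called in either direction by edgeR, limma-voom or DESeq2, and 0 had an unadjusted p under 0.05 in edgeR. All 7 genes overlapped between the groups, and within the LPS-CPD-4645 group *mt-Co1* stood at 13723, 13487, 9950 and 18455 CPM, from mouse 3 as the lowest to mouse 4 as the highest. The nuclear median of 0.21 is about as large as the smallest of these SE, so a change of that size was not detectable in these genes. In the same mice the summed neuronal markers were 8154 to 10545 CPM, against 7619 to 8476 CPM in LPS-vehicle mice, and the summed neutrophil markers 3.50 to 19.5 CPM against 49.4 to 204 CPM. The 3 brown adipocyte markers summed to 4.86 to 6.78 CPM against 2.39 to 4.02 CPM. The part of these cells in the nuclear rises was not tested.

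Against sham-vehicle mice, the log2 fold changes of all 7 measurable mitochondrial genes were below 0 in LPS-CPD-4645 mice. Of the 7 mitochondrial genes, 4 were called lower, where 19.3% of all genes tested were, with a median of -0.66. *mt-Nd4* fell by 0.77 ± 0.23 (edgeR adjusted p = 0.0133), *mt-Nd2* by 0.76 ± 0.25 (0.0247), *mt-Cytb* by 0.69 ± 0.25 (0.0385) and *mt-Co1* by 0.66 ± 0.22 (0.0213), and all 7 genes overlapped between the groups. DESeq2 did not call *mt-Cytb* (adjusted p = 0.0704). The summed microglia markers (81.2 to 117 against 140 to 193 CPM) and ependymal markers (9.88 to 16.0 against 22.2 to 27.0 CPM) lay below all sham-vehicle mice, and their part in these values was not tested. Without sham-vehicle mouse 4 the count called was 0 of 7 by edgeR and the median -0.40, and *mt-Co1*, *mt-Nd2* and *mt-Cytb* were also not called without LPS-CPD-4645 mouse 2 or 3, nor *mt-Nd2* and *mt-Cytb* without LPS-CPD-4645 mouse 1, nor *mt-Cytb* without sham-vehicle mouse 1 or 3. The edgeR adjusted p of these lost calls ran from 0.0502 to 0.2. The count called was 5 of 7 without sham-vehicle mouse 2 (median -0.80) or LPS-CPD-4645 mouse 4 (median -0.82), where 17.5% and 16.7% of all genes were.

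Of the 92 nuclear members, 16 (17.4%) were called higher than in sham-vehicle mice, where 19.5% of all genes were, and 8 (8.70%) lower, where 19.3% were. The median was 0.08 against -0.01 over all genes. *Atp5l* alone was called higher by at least 2-fold and no member lower, where 6.11% and 4.98% of all genes were. It went from 3.28, 2.13, 4.66 and 3.75 CPM to 5.22, 9.58, 12.3 and 7.65 CPM, without overlap (log2 fold change 1.34 ± 0.31, edgeR adjusted p = 0.00253). *Ndufaf6* rose by 0.84 ± 0.14 (edgeR adjusted p = 0.000141), while *Ndufaf2* fell by 0.72 ± 0.15 (0.00101) and *Atp5s* by 0.64 ± 0.12 (0.000512). *Ndufb4* rose by 0.56 ± 0.19 (edgeR adjusted p = 0.0242), a call lost without sham-vehicle mouse 1, 2 or 4 or LPS-CPD-4645 mouse 2 or 4 (edgeR adjusted p = 0.0628 to 0.0944). Of the core genes, *Atp5a1* (0.33 ± 0.09, edgeR adjusted p = 0.00878), *Uqcrfs1* (0.28 ± 0.08, 0.0122), *Sdhd* (0.34 ± 0.08, 0.00314) and *Ndufs1* (0.19 ± 0.07, 0.0467) were higher, the last with a call lost without any one of 9 libraries (edgeR adjusted p of up to 0.108). Without LPS-CPD-4645 mouse 2 the nuclear count called higher was 9, where 16.2% of all genes were, and the nuclear median was 0.05. The nuclear count called lower was 4 without sham-vehicle mouse 2 or 3 or LPS-CPD-4645 mouse 2 or 4, where 15.6% to 17.5% of all genes were.

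Several subunits exist as isoforms for particular tissues, and these differed from their widely expressed partners. *Cox4i1* stood at 1419 ± 224 TPM in sham-vehicle mice (SD, n = 4) and its hypoxia-related isoform *Cox4i2* at 8.21 ± 1.57, *Cox6a1* at 1361 ± 221 and *Cox6a2* at 26.7 ± 9.67, and *Cox6b1* at 1175 ± 123 and the testis isoform *Cox6b2* at 8.22 ± 4.03 TPM. *Cox7a2* stood at 623 ± 73.3 and the muscle isoform *Cox7a1* at 14.8 ± 5.06 TPM, and *Cox8a* at 1945 ± 295 and the muscle and brown fat isoform *Cox8b* at 6.17 ± 0.68 TPM. *Cox7b2*, of testis, reached 5.83 ± 2.71 TPM, and *Cox8c*, also of testis, was at 0 in every library but 1. In each pair the widely expressed gene lay above the other by far more than the spread of either.

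Of these isoforms *Cox6a2* and *Cox6b2* were lower in LPS-CPD-4645 than in sham-vehicle mice. *Cox6a2* stood at 3.72, 2.48, 4.82 and 2.24 CPM under CPD-4645, overlapping sham-vehicle mice (log2 fold change -0.90 ± 0.30, edgeR adjusted p = 0.0222), and *Cox6b2* at 1.74, 1.5, 1.84 and 1.69 CPM against 2.17, 5.03, 2.59 and 2.57 CPM, without overlap (log2 fold change -0.86 ± 0.30, edgeR adjusted p = 0.0285). Each call was lost without any one of 4 libraries, among them sham-vehicle mouse 2 and LPS-CPD-4645 mice 2 and 4 (edgeR adjusted p of up to 0.0893 and 0.161), the others being sham-vehicle mouse 3 for *Cox6a2* and LPS-CPD-4645 mouse 1 for *Cox6b2*. Without sham-vehicle mouse 2 the log2 difference of *Cox6b2* was -0.51 (edgeR adjusted p = 0.161), and limma-voom did not call it (adjusted p = 0.0617). *Cox4i1* rose by 0.25 ± 0.10 (edgeR adjusted p = 0.0469), a call lost without any one of 7 libraries (edgeR adjusted p of up to 0.103), *Ndufa4* rose by 0.30 ± 0.10 (0.0211), a call lost without sham-vehicle mouse 1 or LPS-CPD-4645 mouse 2, and *Cox7a2l*, which joins complexes III and IV, was at 0.08 ± 0.08 (0.416). *Cox4i2*, *Cox7a1*, *Cox7b2* and *Cox8b* passed the threshold in none of the 3 comparisons by edgeR.

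*Ndufa4l2*, a hypoxia-induced relative of *Ndufa4* that is known as a pericyte gene in brain vessels, stood at 6.56, 6.96, 7.17 and 5.09 CPM in sham-vehicle, 3.85, 6.24, 2.65, 4.22 and 8.76 CPM in LPS-vehicle and 3.08, 3.01, 4.93 and 2.16 CPM in LPS-CPD-4645 mice. The LPS-CPD-4645 mice lay below all sham-vehicle mice and within the LPS-vehicle range apart from the lowest (log2 fold change against sham-vehicle mice -0.96 ± 0.31, edgeR adjusted p = 0.0206). The call was lost without sham-vehicle mouse 3 or LPS-CPD-4645 mouse 2 or 4 (edgeR adjusted p = 0.0513 to 0.0714). The 7 pericyte markers summed to 241 to 360 CPM in sham-vehicle, 176 to 300 CPM in LPS-vehicle and 203 to 273 CPM in LPS-CPD-4645 mice, with 4 of 7 called lower and 1 higher in LPS-CPD-4645 against sham-vehicle mice, where 19.3% and 19.5% of all genes were, and their part in the *Ndufa4l2* values was not tested.

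Transcription of nuclear subunit genes is known to draw on the factors NRF1, the GABP members of the ETS family and YY1. A RefSeq promoter window on GRCm38.p6, 250 bases before to 50 after a gene's start, was matched for 76 of the 93 nuclear members, and a gene counted once if any of its windows held a motif on either strand. The NRF1 motif GCGCATGCG was in 10 of the 76 (13.2%) and in 1.95% of 27025 genes with such windows, the YY1 motif AAGATGGCG in 8 (10.5%) and 1.64%, and the ETS motif ACTTCCGG in 5 (6.58%) and 4.31%. Among members called higher under CPD-4645 against LPS-vehicle mice, NRF1 was in 4 of 31 (12.9%), YY1 in 3 (9.68%) and ETS in 1 (3.23%), and among the other members tested they were in 6 (13.3%), 5 (11.1%) and 4 (8.89%) of 45. To show the NRF1 motif, 30 bases of the promoters of *Ndufa11* (chr17:56717692-56717721, plus strand) and *Cox6a1* (chr5:115349101-115349130, minus strand), both called higher under CPD-4645, and of *Atp5k* (chr5:108434430-108434459, minus strand), which was not, are printed 5′ to 3′ with the motif in capitals.
Ndufa11: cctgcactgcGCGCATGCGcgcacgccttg
Cox6a1: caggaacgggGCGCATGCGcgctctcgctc
Atp5k: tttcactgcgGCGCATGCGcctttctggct

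The genes of these factors were themselves measured. In LPS-CPD-4645 against LPS-vehicle mice *Nrf1* (0.32 ± 0.10, edgeR adjusted p = 0.0186), *Gabpb1* (0.46 ± 0.10, 0.00166) and *Ppargc1b*, a coactivator of mitochondrial genes (0.98 ± 0.33, 0.0292), rose and *Yy1* fell (-0.33 ± 0.12, 0.0476), 3 higher and 1 lower of 12 regulators tested, where 14.1% of all genes were higher and 16.4% lower. After LPS 1 of the 12, *Ppard*, was called higher, where 11.1% of all genes were. Against sham-vehicle mice 3 of 12 were higher and 1 lower under CPD-4645, where 19.5% and 19.3% of all genes were.

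Of the machinery that makes and reads mitochondrial RNA, 2 of 28 genes were called higher and 0 lower by edgeR after LPS, where 11.1% of all genes were higher and 8.86% lower (*Mterf2*, 0.41 ± 0.14, edgeR adjusted p = 0.0484, and *Tbrg4*, 0.31 ± 0.08, 0.0148). Under CPD-4645 against LPS-vehicle mice 3 were higher and 7 lower, where 14.1% of all genes were higher and 16.4% lower. *Tfb1m*, a methyltransferase of mitochondrial ribosomal RNA, fell by 1.69 ± 0.23 (edgeR adjusted p = 4.61e-05) and *Fastkd2*, an RNA-binding protein of the mitochondrial ribosome, by 1.16 ± 0.14 (1.87e-05), while *Mterf3* (0.48 ± 0.14, 0.0135) and *Tfam*, which packages mitochondrial DNA (0.41 ± 0.08, 0.000963), rose. By the same shares of all genes, of 77 mitochondrial ribosomal protein genes 2 rose and 2 fell after LPS and 20 rose and 12 fell under CPD-4645 against LPS-vehicle mice, with *Mrpl2* (0.72 ± 0.10, 9.03e-05) and *Mrpl36* (-1.05 ± 0.10, 3.77e-06) at the ends.

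Further assembly factors with cytochrome c counted 42 genes, to be read against 11.1% of all genes called higher and 8.86% lower after LPS and 14.1% and 16.4% under CPD-4645 against LPS-vehicle mice. After LPS 1 was called, *Cycs*, the cytochrome c that carries electrons from complex III to complex IV, which fell by 0.72 ± 0.11 (edgeR adjusted p = 7.73e-05). Under CPD-4645 against LPS-vehicle mice 5 were higher and 14 lower, with falls of *Coa4* (-1.36 ± 0.31, 0.00350) and *Bcs1l*, which inserts the Rieske protein into complex III (-1.32 ± 0.15, 9.42e-06), and rises of *Higd1a* (0.54 ± 0.08, 9.60e-05) and *Cox10* (0.46 ± 0.12, 0.00882). The median of this list was -0.03, beside 0.22 over the 84 nuclear subunits tested.

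The pathways that feed the chain were counted in the same way and stand against the same shares of all genes, 11.1% higher and 8.86% lower after LPS and 14.1% and 16.4% under CPD-4645 against LPS-vehicle mice. Of 17 tricarboxylic acid cycle genes, 1 was higher and 2 lower after LPS, with *Idh2* up by 0.57 ± 0.12 (edgeR adjusted p = 0.00175) and *Cs*, citrate synthase, and *Idh3a* each down by 0.35 (0.00138 and 0.00449), and 8 were higher and 2 lower under CPD-4645 against LPS-vehicle mice. Of 27 glycolysis genes, 8 rose and 8 fell after LPS, with *Pdk4*, a kinase that shuts pyruvate dehydrogenase (2.30 ± 0.21, 3.78e-07), and *Hk2*, a hexokinase (1.52 ± 0.27, 0.000493), at the upper and *Pgam1* (-0.65 ± 0.15, 0.00488) and *Slc16a1*, a lactate carrier (-0.55 ± 0.10, 0.000499), at the lower end, and under CPD-4645 8 were higher and 3 lower than in LPS-vehicle mice. Of 11 carriers and uncoupling proteins, 2 rose after LPS, *Ucp2* by 1.61 ± 0.17 (edgeR adjusted p = 2.05e-06) and *Slc25a27* by 0.39 ± 0.10 (0.0109). Under CPD-4645 *Slc25a5* and *Slc25a4*, which exchange ADP and ATP across the inner membrane, were among 4 higher than in LPS-vehicle mice (0.34 ± 0.08 and 0.33 ± 0.08, 0.00561 and 0.00441), and 2 were lower.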

How the data were processed

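RNA from the unsorted vessel fraction of 13 mice, 1 library per mouse, was read as 75-base single ends after poly(A) selection. The authors aligned the reads with STAR 2.5.2a to mm10 (GRCm38) and deposited whole-number counts per gene on GENCODE M9 basic, with no normalization. The strand column behind these counts is not given in the sources used here, so overlapping antisense genes could share reads. Groups and replicate numbers came from the labels, and p-values measure the spread between single mice. The members and the gene lists were chosen with earlier results of these data known.

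Symbols came from GENCODE M21 (47224 identifiers matched). Genes were kept by filterByExpr (minimum count 10, minimum total 15), scaled by TMM (factors 0.908 to 1.08) and fitted over the 3 groups with edgeR 4.0.16 in R 4.3.3. The log2 CPM values used a prior count of 2, and the log2 fold changes kept the default prior count of the edgeR fit. Of the 106 members, 99 passed the filter, and *mt-Nd3*, *mt-Nd4l*, *mt-Co2*, *mt-Co3*, *mt-Atp6*, *mt-Atp8* and *Cox8c* did not. Alternatives used limma-voom (limma 3.58.1), DESeq2 1.42.0, no filter, other scalings, a replicate block and each library left out in turn. The fits were tested on simulated data. Named were all mitochondrial members, the 8 nuclear members with the largest called change in each comparison, isoform pairs, the Sdh genes and core subunits, and from each other list the 2 largest rises and falls. Intervals from depth and floors of 3 counts cover counting error only. The NRF1 motif was shortened after the result for a longer form had been seen. One gene-level result is not reported here.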

Additional observations from a re-analysis of the deposited data

Results flagged for a closer look

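For 46 named members, the summed mitochondrial level, the summed nuclear level and the mitochondrial minus nuclear difference, each group's highest or lowest mouse was compared with the others by Dixon's gap ratio, which marked 12 of 147 groups (8.16%). Chance alone marks about 1 in 20.

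LPS-vehicle mouse 1 stood below its group for the mitochondrial genes. It was at 9693 CPM for *mt-Nd1* (others 13137 to 14210), at 3826 CPM for *mt-Nd2* (others 5312 to 5921), at 1496 CPM for *mt-Nd5* (others 2784 to 3045) and at 35847 CPM for the 13 genes summed (others 51354 to 54641). The same mouse was lowest for *Cox6b2*, at 1.34 CPM against 2.00 to 2.13.

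Sham-vehicle mouse 4 was high for *Ndufa10*, at 302 CPM against 201 to 211, and low for *Cox4i2*, at 1.78 CPM against 2.29 to 2.40. Sham-vehicle mouse 3 was high for *Cox5a*, at 309 CPM against 264 to 269, and for *Cox6b1*, at 319 CPM against 274 to 278. LPS-CPD-4645 mouse 1 was low for *Cox5a*, at 256 CPM against 327 to 336. LPS-vehicle mouse 4 was low for *Cox6a2*, at 1.42 CPM against 2.65 to 2.98, and sham-vehicle mouse 2 for *Atp5s*, at 18.8 CPM against 21.6 to 22.1.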

How the results depend on the processing

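Of 48 called values of named members, 778 refits kept the direction and the call, 134 lost the call and 0 reversed. No member was called higher in LPS-vehicle than in sham-vehicle mice under any alternative run. The count called lower there, 13, was 28 with a replicate block (24 of them nuclear, beside 9.27% of all genes) and 23 for replicates 1 to 4 without the block, a setting chosen after seeing the data. Leaving out 1 library moved it between 6 and 23, with 8 without sham-vehicle mouse 3, 7 without sham-vehicle mouse 4 or LPS-vehicle mouse 1, 6 without LPS-vehicle mouse 4 and 23 without LPS-vehicle mouse 5. Against LPS-vehicle mice the count higher under CPD-4645, 36, ran from 21 (without LPS-CPD-4645 mouse 2) to 41 and the count lower from 2 to 4. Against sham-vehicle mice the count higher, 16, was 25 with voomWithQualityWeights and ran from 9 (without LPS-CPD-4645 mouse 2) to 19, and the count lower, 12, ran from 5 (without LPS-CPD-4645 mouse 2) to 13, with 7 without sham-vehicle mouse 3 or 4 or LPS-CPD-4645 mouse 1. The causes were not tested. With the replicate block 46 were higher and 4 lower against LPS-vehicle mice (14.0% and 15.6% of all genes) and 20 higher and 12 lower against sham-vehicle mice (20.1% and 19.7%). Under the block 4 calls of named members were lost, *mt-Nd4* after LPS (edgeR adjusted p = 0.0565), *Ndufb4* under CPD-4645 against LPS-vehicle mice (0.0513), and *Ndufs1* (0.0605) and *Cox6b2* (0.0507) under CPD-4645 against sham-vehicle mice. Correlations of same-numbered mice ran from -0.035 to 0.114, and those of differently numbered mice from -0.137 to 0.124. Such correlations cannot show whether same-numbered mice were handled together, so whether the replicate numbers pair the mice is not known. The mitochondrial minus nuclear difference between LPS-vehicle and sham-vehicle mice, -0.58, ran from -0.80 to -0.33 with 1 library left out.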
